A study of Danio rerio with 2 samples.

Results

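The 6 genes described here were chosen by name, as genes of red cell heme, iron and membrane: alas2 (ENSDARG00000038643), cahz (ENSDARG00000011166), SLC4A1 (ENSDARG00000012881), fth1a (ENSDARG00000015551), blf and si:ch211-250g4.3, of 19955 gene IDs in the deposited tables. The 6 genes, and the gene lists used below, were chosen with earlier results of these data known. All 6 were found in the tables of both plates. The label covers alas2, cahz, SLC4A1 and fth1a by their known roles, whereas blf is a zinc finger gene and si:ch211-250g4.3 has only a clone-based name, for which no role is given here. The cells came from the caudal hematopoietic tissue, the tail niche that supports blood progenitors of the zebrafish larva. Per the labels, the animals were wild type, the stage was 5 days post fertilization and the sort day was day 6, and this holds for every group compared. Cells sorted as hematopoietic stem and progenitor cells were placed in 2 plates of 384 wells, plate 20 and plate 21, and CEL-seq2 counted the 3′ ends of their transcripts with molecular identifiers.

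Red cells carry oxygen on hemoglobin, which needs a heme group with an iron atom at its centre. alas2 encodes the erythroid form of the enzyme that starts heme synthesis in the mitochondrion, and fth1a encodes a heavy chain of ferritin, the shell in which cells store iron. cahz encodes a carbonic anhydrase of fish red cells, which interconverts carbon dioxide and bicarbonate, and SLC4A1 encodes band 3, the membrane protein that exchanges bicarbonate for chloride and anchors the red cell skeleton. blf was described in zebrafish as a gene of embryonic blood formation.

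The plate layouts sort each well into a class called double or single, without saying for which markers, and leave 21 wells undefined. A well counted as a cell from 500 transcripts up, which gave 189 double and 111 single cells on plate 20 and 186 double and 89 single cells on plate 21, with a median depth between 7170 and 9395 transcripts per cell in these 4 groups. The layout of plate 21 carries no well numbers and was read along rows, the order that plate 20 numbers; class values of plate 21 depend on this choice. Both tables number their wells from 1 to 384, so well numbers cannot show whether the plates share animals or cells. Of the 575 cells, 15 had muscle or epidermis markers at over 5% of their depth, and the largest well, a double well of plate 20 with 249815 transcripts, drew 18.2% from muscle markers. The summed muscle markers differed between the groups, at 27499 and 725 CPM (transcripts per 1000000 transcripts of the group) in double cells and at 3783 and 13136 in single cells of plates 20 and 21. Neutrophil markers summed to 5944 and 5861 CPM in double cells and to 3121 and 1364 in single cells of the same plates, and globins summed to 28204 and 32932 in double and 42983 and 63881 in single cells.

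The comparison of double with single cells asks how the sort classes differ in these genes. Transcripts were summed over the cells of a class on a plate, and levels are given as CPM of that sum. Of alas2, the double cells held 689 CPM on plate 20 and 705 on plate 21, and the single cells held 1153 and 1301. Both sums of double cells thus lay below both sums of single cells, and the plates of a class differed by less than the classes did. How many of all genes have such non-overlapping sums was not counted, here or for the genes below. By the looser measure of being lower in double cells on each plate, 27.3% of 8488 genes tested were. At least 1 alas2 transcript was seen in 67.2% and 62.9% of double cells and in 74.8% and 84.3% of single cells on plates 20 and 21.

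Of cahz, the double cells held 1727 and 1624 CPM on plates 20 and 21, and the single cells held 2670 and 2745. SLC4A1 stood at 3394 and 3643 CPM in double cells and at 4806 and 5161 in single cells. For both genes of bicarbonate handling the classes did not overlap either, a pattern whose share over all genes was not counted. SLC4A1 was seen in nearly every cell of either class, between 96.6% and 99.1% in the 4 groups. With every cell thinned to 500 transcripts, it would be seen in 66.7% and 64.1% of double cells and in 77.5% and 76.2% of single cells on plates 20 and 21.

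Of fth1a, the double cells held 7423 and 7830 CPM on plates 20 and 21, and the single cells held 10061 and 9426. The ferritin gene was found in all 575 cells, and its classes again did not overlap. Its lowest cell held 4.73 transcripts per 10000 that were not globin, and its highest 316.

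Of the remaining pair, blf overlapped between the classes, and the double sums of si:ch211-250g4.3 lay below its single sums only within counting error. Of blf, the double cells held 450 CPM on plate 20 and 557 on plate 21, while the single cells held 557 and 438. The order of the classes for blf was therefore opposite on the 2 plates. Of si:ch211-250g4.3, the lowest of the 6, the double cells held 74.5 and 76.2 CPM and the single cells 83.2 and 79.0, with overlapping counting intervals in all 4 groups. Its single sum on plate 21 held 74.0 transcripts, of which 1 well gave 17.6%.

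**Figure D1:**
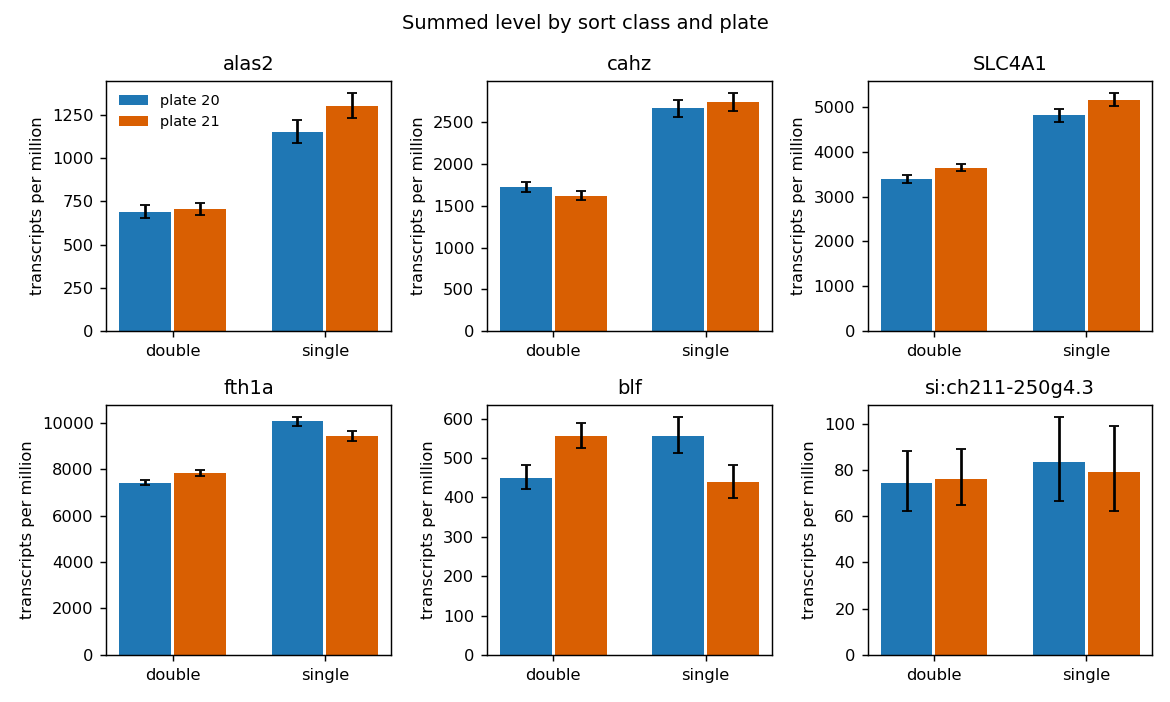
Level of each of the 6 genes in CPM, transcripts scaled to 1000000 in each sum (vertical axes, from 0) in double and single cells of plate 20 (blue) and plate 21 (orange). Bars are sums over cells and error bars are exact 95% Poisson intervals, which cover counting error only. Double cells lie below single cells on both plates for alas2 (689 and 705 against 1153 and 1301), cahz, SLC4A1 and fth1a, and the plates go opposite ways for blf.

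The sums of each plate and class were tested across 8488 genes with edgeR's quasi-likelihood test, with the plate as a block. A fold is the log2 ratio of double over single cells. alas2 had a log2 fold of -0.84 ± 0.13 (SE), with -0.69 on plate 20 and -0.98 on plate 21 (edgeR, adjusted p = 0.25). The log2 fold of cahz was -0.71 ± 0.11 with the same adjusted p of 0.25 in edgeR, and it was -0.58 and -0.85 on the plates taken singly. SLC4A1 stood at -0.52 ± 0.08 and fth1a at -0.37 ± 0.06, both again at an adjusted p of 0.25 in edgeR. The differences of these 4 genes thus ran the same way on both plates but did not pass the threshold of 0.05. Of the 6 members, 5 were lower in double cells on both plates, as were 27.3% of all genes.

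No member was called in this test, in which 0% of all genes were called and the smallest adjusted p of any gene was 0.229 (edgeR). DESeq2's Wald test called 28 genes, or 0.33%, among them alas2, cahz and SLC4A1. At an unadjusted p under 0.05 edgeR placed 4 of the 6 members lower in double cells, beside 3.16% of all genes (268) lower and 5.38% (457) higher. With the plate as a block and 1 residual degree of freedom, the edgeR p-values rest on how the class difference varied between plates. They also borrow from the spread of other genes, through edgeR's quasi-likelihood fit. The labels do not say that the plates came from separate animals. blf had a log2 fold of -0.004 ± 0.17 (edgeR, adjusted p = 0.999), with -0.25 on plate 20 and 0.25 on plate 21. si:ch211-250g4.3 had a log2 fold of -0.13 ± 0.17 (edgeR, adjusted p = 0.9).

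The 15 wells rich in muscle or epidermis markers moved with these calls. Without them, edgeR called 1.32% of 8012 genes, and the log2 folds were -0.87 for alas2 (adjusted p = 0.0042), -0.79 for cahz, -0.56 for SLC4A1 and -0.40 for fth1a (adjusted p = 0.0039 for each of the last 3). Reading the layout of plate 21 down columns instead gave smaller log2 folds of -0.43 for alas2, -0.37 for cahz, -0.28 for SLC4A1 and -0.24 for fth1a. None passed in edgeR, which called 0.0357% of genes there. Only plate 21 was read anew, and its own folds were then -0.16, -0.15, -0.12 and -0.096 in the same order. Read along rows, plate 21 had given -0.98, -0.85, -0.60 and -0.36. The 4 genes also passed in edgeR with no filter on low counts (1.87% of genes called) and with each cell thinned to 500 transcripts (6.64% called).

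In a summed level, fewer cells of a type and fewer transcripts per cell cannot be told apart, so the classes were also compared within 2 ranges of globin share. Cells with over 5% globin made up 21.7% of double and 36.04% of single cells on plate 20, and 19.4% and 46.1% on plate 21. Among these cells alone, alas2 stood at 23.7 and 20.5 transcripts per 10000 that were not globin in double cells, and at 31.0 and 27.9 in single cells. The log2 fold of alas2 among them was -0.45 ± 0.09 (edgeR, adjusted p = 0.308 over 3799 genes), a smaller value than over all cells. cahz at -0.30 ± 0.07, SLC4A1 at -0.30 ± 0.07 and fth1a at -0.27 ± 0.06 kept the same sign on both plates, and none passed in edgeR (0% of genes called).

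Among cells with up to 5% globin, alas2 stood at 3.23 and 3.27 transcripts per 10000 not from globin in double cells and at 4.19 and 3.18 in single cells, so the classes overlapped. Its log2 fold there was -0.15 ± 0.16, while cahz and SLC4A1 each stood at -0.28, with SEs of 0.14 and 0.09, and fth1a at -0.19 ± 0.07; none passed in edgeR. For alas2, cahz, SLC4A1 and fth1a the values within either globin range were thus smaller than over all cells. The share of globin-rich cells moved with the class, and its part in the difference over all cells was not tested.

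The ranges did not make the classes alike in globin. Over 5%, the median globin share on plate 20 was 8.07% for double against 9.28% for single cells, and on plate 21 it was 9.07% against 12.34%. Up to 5% it was 0.64% and 0.61% in double and 0.80% and 0.88% in single cells. Per 1000 globin transcripts in cells over 5%, cahz stood at 55.4 and 45.2 in double and at 54.7 and 41.9 in single cells. SLC4A1 stood at 75.2 and 69.2 in double and at 73.9 and 64.7 in single cells. For fth1a the plates went opposite ways, with 138 and 122 in double and 143 and 103 in single cells. alas2 stood at 24.3 and 20.4 in double and at 27.1 and 20.7 in single cells, with overlapping counting intervals on both plates. Up to 5% globin, the plates went opposite ways for alas2, cahz, SLC4A1 and fth1a. There cahz stood at 71.3 and 58.3 in double and at 84.2 and 49.4 in single cells. For the same genes the ratio to globin was lower at 20% globin and over than from 5 to 20%. Single cells had the higher globin medians, so the ratio cannot show whether the classes differ.

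**Figure D2:**
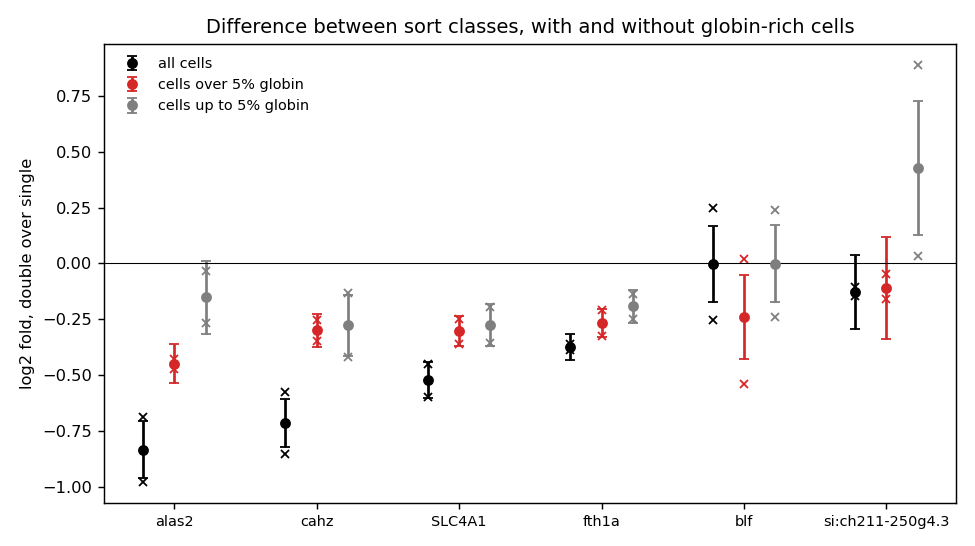
The log2 fold of double over single cells (vertical axis) for each gene over all cells (black), cells over 5% globin (red) and cells up to 5% globin (grey). Points are edgeR estimates, bars ± 1 SE, and crosses the plates taken singly. alas2 stands at -0.84 over all cells and at -0.45 and -0.15 in the globin ranges, and blf has crosses on either side of 0.

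The globin share of a cell, the percentage of its transcripts from 12 globin genes, served as a scale, and its ranges are not cell types. Whether it follows stages of red cell formation was not tested. The share ran from 0.0943% to 26.6% with a median of 1.16%, and no cell was without globin. Cells were placed in 5 ranges, which held 30 and 10 cells under 0.3%, 110 and 119 cells from 0.3 to 1%, 79 and 69 from 1 to 5%, 75 and 72 from 5 to 20%, and 6 and 5 at 20% and over, on plates 20 and 21. The ranges with fewer than 20 cells are thin. Levels along this scale are given per 10000 transcripts that are not globin, so that globin itself does not lower them.

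alas2, which starts heme synthesis, had the largest ratio of the 6 between cells with 5 to 20% and cells with 0.3 to 1% globin. By share of cells, its low end was not told apart from wells of another cell type (below), so this ratio depends on that background. alas2 stood at 1.44 and 1.15 per 10000 on plates 20 and 21 in cells with 0.3 to 1% globin, at 6.52 and 6.36 in cells with 1 to 5%, and at 26.0 and 23.7 in cells with 5 to 20%. In the thin range at 20% and over it stood at 51.1 on plate 20 and at 27.8 on plate 21. The plates lay close together except in that last range, where their 95% Poisson intervals of 42.6 to 60.5 and 21.3 to 35.5 did not overlap.

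cahz followed a like course. Its levels were 4.03 and 3.17 per 10000 from 0.3 to 1% globin, 19.96 and 15.7 from 1 to 5%, and 54.9 and 49.3 from 5 to 20%. The first pair of these ranges differed by a larger ratio than the second in this carbonic anhydrase gene, on both plates. In cells at 20% and over it reached 131 and 91.9. In each of these ranges plate 20 lay above plate 21, and the 95% Poisson intervals of the plates did not overlap. From 1 to 5% globin, 1 well gave 18.9% of the cahz transcripts of plate 20.

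SLC4A1 began from a higher level and had a flatter course. It stood at 22.04 and 18.2 per 10000 from 0.3 to 1% globin, at 41.5 and 45.4 from 1 to 5%, and at 76.1 and 76.4 from 5 to 20%. Band 3 transcripts were thus counted in cells with little globin, and each range up lay above the last on both plates. fth1a went from 60.1 and 54.9 through 85.0 and 94.2 to 146 and 129 over the same ranges. The ferritin gene was thus the most abundant of the 6 in every range by count of molecules, with the smallest ratio between these ranges of the 4.

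blf had another course. It stood at 5.79 and 5.26 per 10000 from 0.3 to 1% globin, at 5.31 and 7.18 from 1 to 5%, and at 3.87 and 4.43 from 5 to 20%. On both plates blf was thus lower from 5 to 20% than from 1 to 5%, and the intervals of these ranges did not overlap. In the median cell, blf went from 1.06 and 1.15 through 5.50 and 6.49 to 3.59 and 3.63 per 10000. The median cell with 1 to 5% globin thus held more of it than the median cell of the range on either side. The sum from 0.3 to 1% was carried by fewer cells, since 52.7% and 53.8% of them held a blf transcript, against 78.5% and 87.0% from 1 to 5%.

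si:ch211-250g4.3 was sparse at every globin share. It stood at 0.51 and 0.27 per 10000 from 0.3 to 1% globin, at 0.90 and 0.93 from 1 to 5%, and at 1.39 and 1.52 from 5 to 20%. Each of these ranges lay above the last on both plates. In these ranges the median cell held none, except from 5 to 20% on plate 21, where it held 0.70 per 10000. In the 5 cells of plate 21 at 20% and over no transcript was counted, which allows a level of up to 1.65 per 10000, so a lower level there was not detectable.

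**Figure D3:**
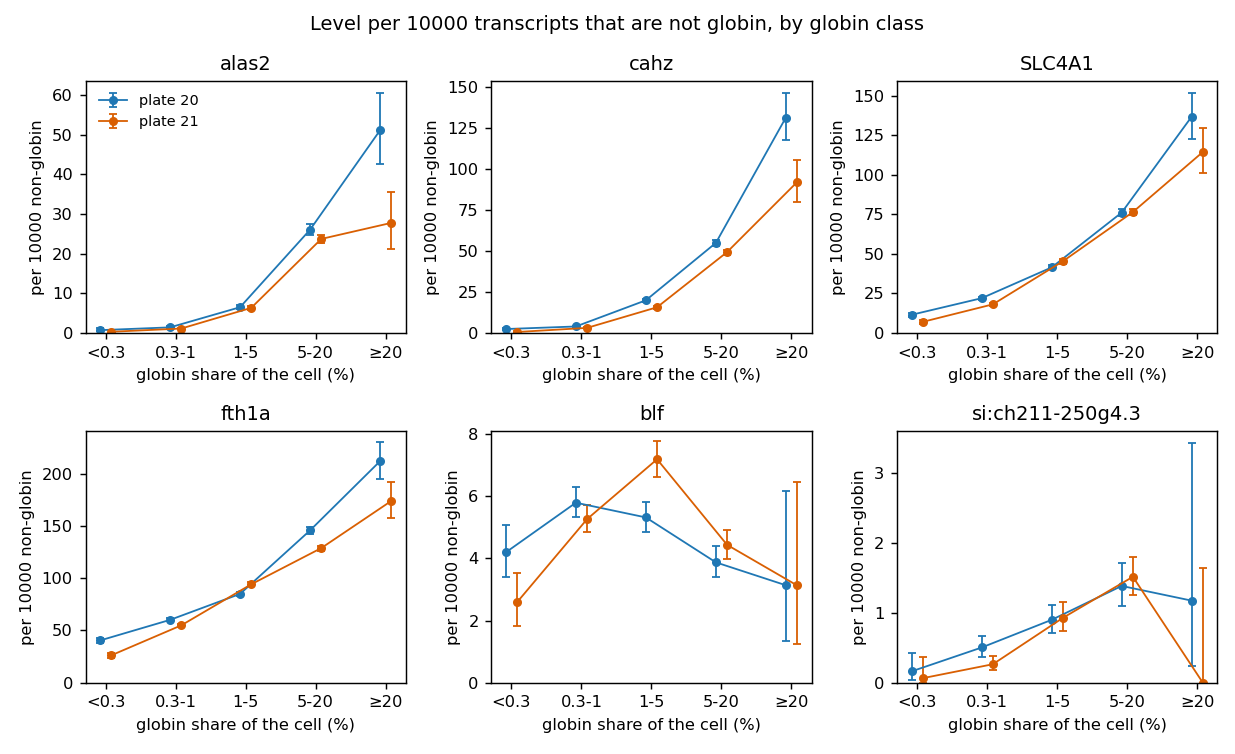
Level of each gene per 10000 transcripts that are not globin (vertical axes, from 0, scaled per gene) against the globin share of the cell in 5 ranges (horizontal axes, %), for plate 20 (blue) and plate 21 (orange). Points are sums over the cells of a range and bars exact 95% Poisson intervals. alas2 goes from 1.44 and 1.15 to 26.0 and 23.7 between 0.3 to 1% and 5 to 20%, whereas blf is lower from 5 to 20% than from 1 to 5% on both plates.

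Cells with over 5% globin (81 on plate 20, 77 on plate 21) were then set against cells with under 1% (140 and 129) across the 4890 genes, globins left out, with at least 50 transcripts on each plate. This is a description with no test, since cells are not replicates and the ranges were cut from a score of the cells themselves. Of all genes, 6.3% (308) were at least 2-fold higher on both plates and 11.2% (549) at least 2-fold lower, with a median log2 ratio of 0.05. Of the 6 members, 5 were at least 2-fold higher on both plates, and none was 2-fold lower. Since the members were chosen with earlier results of these data known, their contrast with all genes can be partly built in. By the mean of the plates' log2 ratios, cahz ranked 3rd of the 4890 genes at 4.01 and SLC4A1 32nd at 2.09. alas2 stood at 4.33, but against cells in which its detection was close to that in wells of another cell type, so the ratio depends on that background and no rank is given. si:ch211-250g4.3 ranked 60th at 1.84 and fth1a 197th at 1.37, while blf ranked 3325th at -0.33.

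**Figure D4:**
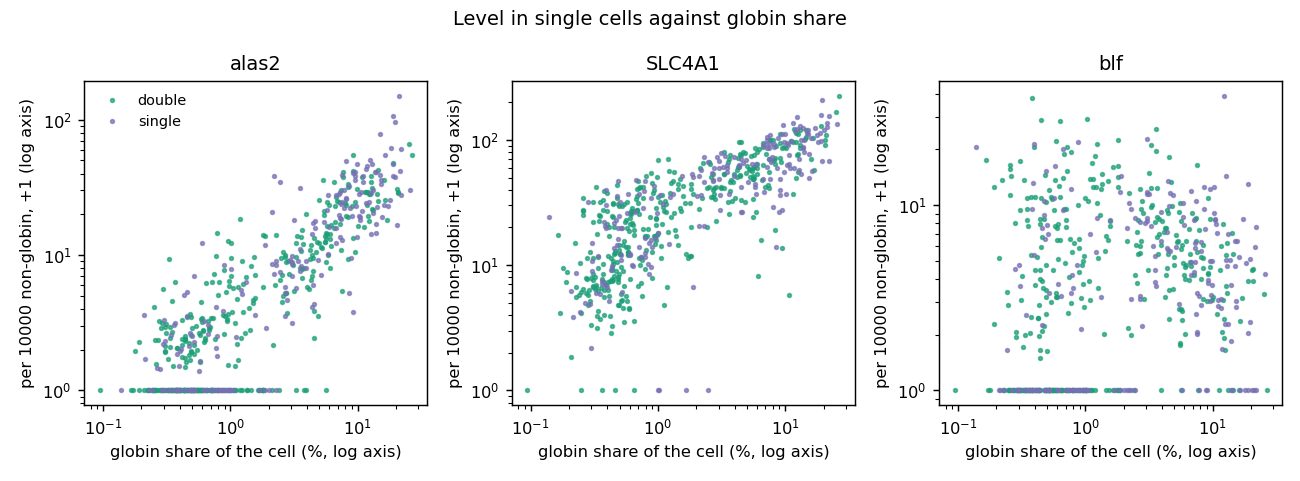
Each point is 1 of the 575 cells, double (green) or single (purple), with its globin share (horizontal log axis, %) and its level of alas2, SLC4A1 or blf per 10000 transcripts not from globin, plus 1 (vertical log axis; the bottom row of points is cells with none). alas2 and SLC4A1 are higher in cells with more globin (r of 0.85 and 0.86, and of 0.78 and 0.76, on plates 20 and 21), and blf spreads at every share (0.22 on each plate).

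Free RNA can give a transcript to a well that does not make it, so the members were also measured where red cell genes should be absent. In 30 wells with at least 5% neutrophil marker transcripts, at a median depth of 6833, alas2 was seen in 43.3%, SLC4A1 in 93.3%, blf in 26.7% and si:ch211-250g4.3 in none, which allows up to 3 transcripts over these wells. With every cell thinned to 500 transcripts, alas2 would be seen in 5.51% of the neutrophil wells and in 5.79% and 5.25% of cells with 0.3 to 1% globin on plates 20 and 21. By this share, alas2 in cells with 0.3 to 1% globin was not told apart from the neutrophil wells. Those wells are themselves among the cells and were not taken out of the globin ranges, so the groups can share wells. It would be seen in 66.4% and 61.3% of cells with 5 to 20% globin.

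cahz, SLC4A1 and blf had higher shares in cells with 0.3 to 1% globin than in the neutrophil wells. Thinned in the same way, cahz would be seen in 14.7% and 12.7% of those cells against 5.73% of neutrophil wells, and SLC4A1 in 53.0% and 49.7% against 29.6%. blf would be seen in 14.0% and 15.0% against 2.29%. fth1a would be seen in 81.6% and 81.1% against 76.0%, but many cell types use this gene, so the neutrophil wells give no background for it.

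Counted per 1000 globin transcripts, alas2 kept nearly 1 ratio. It stood at 26.8 and 21.2 in cells with 0.3 to 1% globin on plates 20 and 21, at 24.7 and 22.5 from 1 to 5%, and at 26.8 and 21.2 from 5 to 20%, and it was 26.1 in neutrophil wells and 28.1 in the 172 double or single wells under 500 transcripts. alas2 thus had about the same ratio to globin in these 3 ranges, in wells of another cell type and in nearly empty wells. The thin range at 20% and over lay lower, at 17.2 and 10.5.

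For the other 5 genes the ratio to globin was lower at 5 to 20% globin than at 0.3 to 1%. The ranges were cut on globin, the denominator of this ratio, which made up 9.57% and 0.54% of their transcripts. Any gene that rises less than globin between these ranges has a falling ratio, so the falls are in part built in. SLC4A1 went from 410 and 335 per 1000 globin transcripts at 0.3 to 1% globin to 78.3 and 68.3 at 5 to 20%, with 155 in neutrophil wells. blf went from 108 and 97.1 to 3.98 and 3.96, with 11.61 in neutrophil wells. Cells with 0.3 to 1% globin thus held more SLC4A1 and blf per globin transcript than the neutrophil wells did. cahz differed least, from 74.8 and 58.6 to 56.5 and 44.1, with 27.1 in neutrophil wells, and fth1a went from 1118 and 1014 to 150 and 115, with 725. si:ch211-250g4.3 went from 9.39 and 4.91 to 1.43 and 1.36, with none counted in neutrophil wells.

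**Figure D5:**
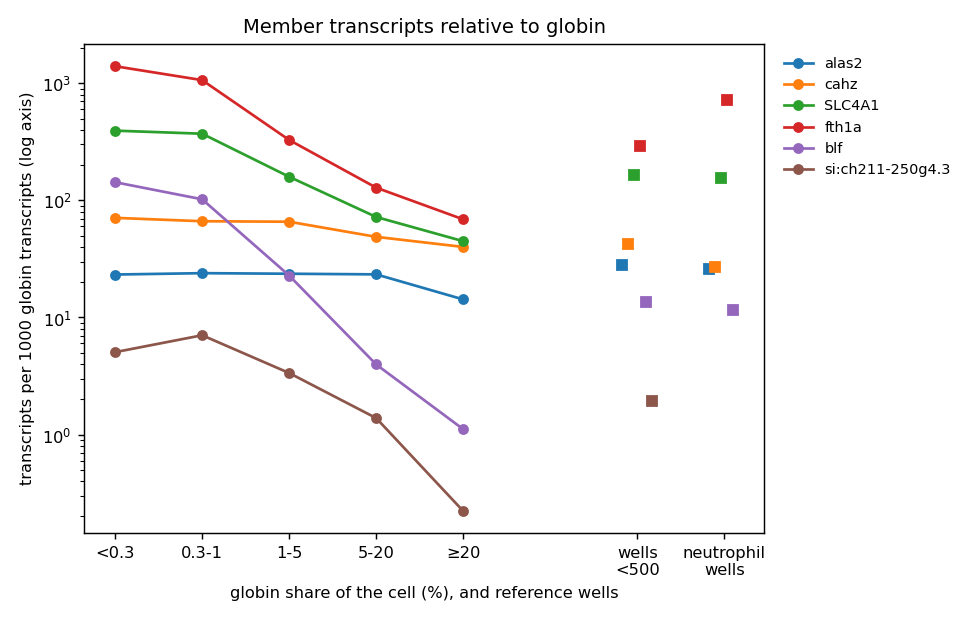
Transcripts of each gene per 1000 globin transcripts (vertical log axis) in the 5 ranges of globin share (circles joined by lines, both plates together), in wells under 500 transcripts and in 30 neutrophil wells (squares). alas2 is level near 23 to 24 up to 20% globin, and blf is at 102 at 0.3 to 1% and at 3.97 at 5 to 20%. The ranges are cut on globin itself, so the ratio falls for any gene that rises less than globin. si:ch211-250g4.3 has no square for neutrophil wells because none was counted there.

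Across cells, alas2, cahz, SLC4A1 and fth1a moved together. The correlations of their log2 levels were between 0.67 and 0.80 within either plate (Pearson's r over 300 and 275 cells, given as a description, since cells of a plate share a library, a denominator and the spread of depth). With the log2 globin share, r was 0.85 and 0.86 for alas2, 0.82 and 0.87 for cahz, 0.78 and 0.76 for SLC4A1 and 0.76 and 0.73 for fth1a. For blf it was 0.22 on both plates, below the 0.37 and 0.41 that blf had with log2 depth. Among cells over 5% globin alone, alas2 and cahz had r of 0.61 and 0.46, and blf had values between -0.26 and 0.01 with the 4 other named genes.

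The 5 genes most like each member, by the mean of the within-plate r over 8071 genes, differed between members. For alas2 and cahz the leading gene was the embryonic globin hbae3, with r of 0.84 and 0.86 for alas2 and 0.80 and 0.84 for cahz, and the others for alas2 were 3 further globins and cahz. For SLC4A1 the leading gene was fth1a, at 0.79 and 0.75. For fth1a it was SLC4A1, followed by PRDX1, a peroxide-reducing enzyme, at 0.71 and 0.80 and hemgn, an erythroid nuclear protein gene, at 0.73 and 0.77. No globin was among the 5 of blf, which were RHAG, an ammonia channel protein of the red cell membrane, at 0.50 and 0.63, the blood transcription factor TAL1 at 0.55 and 0.56, TCIM, PRDX1 and hdac7b. For si:ch211-250g4.3 the unnamed gene ENSDARG00000044212 led at 0.55 and 0.60, and the next had a mean of 0.36.

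Other genes of heme synthesis lay higher in globin-rich cells as alas2 did. Of 10 genes of the list compared, 8 were at least 2-fold higher on both plates, alas2 included, and the median log2 ratio of the list was 2.08 against 0.05 over all genes. UROD, which trims the side chains of the ring, stood at 2.32, and uros, which closes the ring, at 2.104. FECH, which inserts the iron, stood at 1.49. ALAS1, the form of the first enzyme that other tissues use, was the 1 gene 2-fold lower, at 0.78 and 0.64 per 10000 in globin-rich cells and 2.08 and 1.66 in globin-low cells of plates 20 and 21. alas2 and ALAS1 thus lay on opposite sides along globin.

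Of 11 genes of the red cell membrane and its skeleton, 9 were at least 2-fold higher on both plates, with a median log2 ratio of 1.96. AQP1, a water channel, stood at 2.36, TMOD4, of the family that caps actin filaments, at 2.29, epb41b, a protein 4.1 gene that ties the skeleton to the membrane, at 2.25, and SPTB, a spectrin chain, at 1.96, beside 2.09 for SLC4A1. RHAG, with 0.89, was not among the 9.

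Iron genes moved less. Of 11 compared, 4 were at least 2-fold higher on both plates: fth1a, ncoa4, the receptor that hands ferritin to the lysosome, at 1.56, GLRX5, a mitochondrial iron-sulfur protein, at 1.32, and slc11a2, an iron importer, at 1.22. Of 10 red cell enzymes, 3 were higher, namely cahz, SOD1 at 1.14 and gpx1a at 1.05, both of which remove reactive oxygen. Neither of the 2 genes of heme breakdown and export compared was 2-fold higher or lower. Of 17 erythroid factors, 5 were higher, led by klf17 at 2.44 and klf1 at 1.83, with gata1a at 1.23, and blf and TAL1, at 0.67, were not among them.

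Between the sort classes the same lists gave no gene at an adjusted p under 0.05 in edgeR, as over all genes. Of 12 heme synthesis genes tested, 10 had a negative log2 fold of double over single cells, with a median of -0.34. Over all 8488 genes the median was 0.01, and 4153 were negative. Of the 10 genes, 4 had an unadjusted p under 0.05 in edgeR, the member alas2 included. Over all genes, 268 (3.16%) were negative with such a p. UROD stood at -0.50 ± 0.15 and uros at -0.42 ± 0.15. Of 12 membrane genes, 11 were negative with a median of -0.42, and 5 of them, the member SLC4A1 included, had such a p. AQP1 stood at -0.55 ± 0.17, epb41b at -0.49 ± 0.15 and DMTN, a skeleton protein, at -0.45 ± 0.14. ALAS1 at 0.39 ± 0.16 and SLC25A38 at 0.12 ± 0.39 in the first list and kel at 0.77 ± 0.35 in the second had the opposite sign. Among cells over 5% globin alone, 6 of 11 heme synthesis genes were negative with a median of -0.01. Of these, 1 had an unadjusted p under 0.05 in edgeR, namely the member alas2. In the same cells, 10 of 11 membrane genes were negative with a median of -0.27, and 3 of them, SLC4A1 included, had such a p. Over all genes in that range, 1917 of 3799 were negative, and 114 of these negative genes had an unadjusted p under 0.05 in edgeR. Among cells up to 5%, 10 of 12 heme synthesis genes were negative with a median of -0.25, and 11 of 12 membrane genes with a median of -0.16. Over all genes in that range, 3947 of 7858 were negative. ALAS1, SLC25A38 and kel were named after their values were seen.

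The other lists stood nearer to the median of all genes. Of 13 iron genes, 9 were negative with a median of -0.24, with fthl27, a ferritin heavy chain-like gene, at -0.34 ± 0.16, GLRX5 at -0.30 ± 0.15 and slc11a2 at -0.30 ± 0.13. Of 19 erythroid factors, 14 were negative with a median of -0.13, with KLF3 at -0.89 ± 0.29, znfl2a at -0.47 ± 0.16 and stat5a at 0.46 ± 0.18. Of 13 red cell enzymes, 8 were negative with a median of -0.12. gpx4a, which repairs oxidised lipids, stood at 1.87 ± 0.53, and ca2, another carbonic anhydrase, at 0.90 ± 0.49. HK1, a hexokinase, stood at 0.59 ± 0.24, so all of these had the sign opposite to cahz. The folds of gpx4a and ca2 rest on few transcripts. Single cells of plate 21 held 2.28 and 4.57 edgeR-scaled CPM of them, against 2936 of cahz. Of 4 genes of heme breakdown and export, 2 were negative with a median of -0.01, with the heme transporter SLC48A1 at -0.53 ± 0.30, hmox2b at 0.47 ± 0.73 and BLVRA, which reduces biliverdin, at 0.03 ± 0.20. hmox2b was sparse too, at 1.14 edgeR-scaled CPM in single cells of plate 21.

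The limit of 500 transcripts set which wells counted as cells. In the 34 wells just inside it, with 500 to 1000 transcripts, alas2 stood at 412, SLC4A1 at 2883 and fth1a at 6138 CPM. In the 54 wells just outside, with 250 to 500, the same genes stood at 790, 5214 and 7638.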

How the data were processed

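Single-cell CEL-seq2 libraries of sorted cells from 2 plates were prepared, per the labels' protocols. BWA and the genome build Zv9 are named in the submitters' processing notes; for versions, filters and the counting tool the wording is: not given in the sources used here. Unscaled expected counts per gene and well fill the deposited tables, and 100% of the nonzero entries equalled identifier counts corrected for repeated draws from a pool of 4096, within 0.01. Sort classes come from the authors' layouts, per the file headers. Spike-ins were left out of depths. A name was found for 15742 of 19955 gene IDs (78.9%), often a human symbol, and near-identical copies such as globins or ferritins can share reads. kdrl and runx1 were not analysed here, and no doublet caller was run, since cells were sorted into wells.

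Counts of wells with at least 500 transcripts were added up within each plate and class, then rounded (4 sums, 1 residual degree of freedom). The two-sided test over all genes was that of edgeR 4.0.16 (R 4.3.3; TMM, filterByExpr, quasi-likelihood F test, plate as a block, Benjamini-Hochberg adjustment), tested on simulated data. SEs were derived from F. DESeq2 1.42.0 was an alternative, beside other scalings, filters, cell limits, thinning to 500 or 2000 transcripts, globin ranges, wells left out, the reading of plate 21 and each plate left out. The offset in ratios between globin ranges was 0.1 per 10000, and correlations used log2(level + 1). Intervals are exact 95% Poisson intervals and cover counting error only. Undefined wells entered no comparison.

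The members and lists were chosen with earlier results of these data known. Named genes are the 6 members, up to 3 other genes of each list with the smallest p, and the 5 genes most like each member; list genes named along the globin share were chosen after their values were seen. One gene that this rule names is not reported here.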

Additional observations from a re-analysis of the deposited data

Results flagged for a closer look

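Wells that entered no comparison also held transcripts of these genes. The 16 undefined wells with at least 500 transcripts held 46.1 transcripts of alas2, 131 of cahz, 252 of SLC4A1, 725 of fth1a and 54.1 of blf. The 172 double or single wells under 500 transcripts held 29 of alas2, 44 of cahz, 170 of SLC4A1, 300.0 of fth1a and 14 of blf, above the 3 that a count of 0 allows. The log2 fold of si:ch211-250g4.3, double over single, was 0.43 in cells with up to 5% globin and -0.11 in cells with over 5%. On plate 20 these folds were only 0.035 and -0.047, and on plate 21 they were 0.89 and -0.16. Unscaled CPM of plate 20 went the other way, at 61.7 in double and 64.8 in single cells up to 5%, and 125.2 and 123.8 over 5%. The single cells of plate 21 up to 5% held 15 transcripts of this gene. The difference between the ranges was not tested.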

How the results depend on the processing

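alas2, cahz, SLC4A1 and fth1a had a negative log2 fold of double over single cells in all 16 alternatives, from -1.46 to -0.15, -0.92 to -0.28, -0.63 to -0.28 and -0.43 to -0.19. They passed in edgeR with no filter (-0.80, -0.68, -0.49 and -0.34; 368 genes called), with each cell thinned to 500 transcripts (-1.46, -0.92, -0.63 and -0.43; 59 of 888 genes called) and without the 15 muscle or epidermis wells (-0.87, -0.79, -0.56 and -0.40; 106 called). With DESeq2's Wald test alas2, cahz and SLC4A1 passed, at -0.85, -0.72 and -0.53. The cause of these gains was not tested. Without the plate block the folds were -0.84, -0.72, -0.53 and -0.37, 0 genes were called, and the block changed no call. The plates left out in turn gave -0.98 to -0.69 for alas2, -0.85 to -0.58 for cahz, -0.60 to -0.45 for SLC4A1, -0.39 to -0.36 for fth1a, -0.25 to 0.25 for blf and -0.15 to -0.11 for si:ch211-250g4.3. blf turned positive with no filter (0.035), thinning (0.21) and without the largest well (0.028), and si:ch211-250g4.3 turned positive at 0.43 without cells over 5% globin; it had no value under thinning, where it missed the filter.

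Lists shrank under thinning, where fewer genes were tested, to 6 heme synthesis, 0 heme breakdown, 4 iron, 7 membrane, 2 enzyme and 5 factor genes with a negative fold. Cells over 5% globin alone gave 6 of 11 heme synthesis genes (median -0.01, against -0.34 over all cells) and 1 of 2 heme breakdown genes, their omission gave 1 heme breakdown and 5 enzyme genes, no filter gave 4 heme breakdown genes, and single plates gave 1 to 4.

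The log2 ratio of cells with 5% globin and over against those under 1%, from both plates together (4.42 for alas2, 4.03 for cahz, 2.09 for SLC4A1, 1.36 for fth1a, -0.32 for blf), was 4.28, 3.88 and 1.21 for alas2, cahz and fth1a per all transcripts. With cells thinned to 2000 it was 4.85 for alas2, 4.301 for cahz, 2.48 for SLC4A1, 1.65 for fth1a and -0.021 for blf. For fth1a single plates gave 1.34 to 1.40.

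Signs also turned for stat5a (-0.51, cells over 5% globin), hmox2b (-0.38, plate 20 alone), GLRX5 (0.11, thinned), epb41b (0.052, thinned), HK1 (-0.013, plate 21 read down columns) and BLVRA (-0.0064 without the largest well, -0.055 without the 15 wells, -0.016 down columns, and -0.057 on plate 20 alone against 0.12 on plate 21 alone). Sparse genes such as si:ch211-250g4.3 are limited by depth.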
